A study of Mus musculus with 12 samples.

Results

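Regulatory T cells (Treg) of mice with a conditional knockout of Kdm2b (cKO) were compared with those of wild-type mice (WT) in culture without stimulation. The comparison rests on 4 of the 12 RNA-seq libraries of the study, 2 labelled cKO and 2 labelled WT, all made from polyadenylated RNA of Treg whose source is given as spleen and lymph nodes. It covers the 10710 of 24421 tabulated genes whose mean over the 8 cultured libraries reached 1 FPKM (fragments scaled to the length of the gene and to the size of the library, so that genes can be compared per length). The other 4 cultured libraries are stimulated cKO and WT Treg, and a further 4 are cKO and WT Treg in vivo. The line that drives the recombinase, the deleted exons, the age of the mice, the culture medium and the stimulus are not given in the sources used here. Nothing in the labels says that the 2 libraries of a group came from separate animals or cultures, so p-values measure only the spread between these libraries, which may be technical.

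Treg are CD4 T cells that restrain other immune cells. Their identity is held by the transcription factor FOXP3, and they act through the receptor CTLA4, through high-affinity uptake of interleukin 2, through the enzymes that make adenosine and through cytokines such as interleukin 10. KDM2B is a histone demethylase with a zinc finger that binds unmethylated CG dinucleotides. It brings the variant Polycomb complex PRC1.1, built on the scaffold BCOR, to CG-rich promoters, where the complex ubiquitinates histone H2A.

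The libraries were first checked against the markers of the cells they should hold. The T cell receptor chain gene Cd3d was at 103 and 126 FPKM in cKO and 122 and 89.4 FPKM in WT. The co-receptor gene Cd4 was at 129 and 107 FPKM in cKO and 120 and 89.5 FPKM in WT. The Treg gene Tnfrsf18, which encodes the receptor GITR, was at 227 and 285 FPKM in cKO and 306 and 273 FPKM in WT. The other Treg markers were not alike in the genotypes. Foxp3 and Ctla4 were lower in both cKO libraries than in both WT libraries, and Il2ra and Ikzf2 were higher, with values given below. The 15 genes of a pan T cell list had a median log2 fold change (cKO over WT, on log2(FPKM + 1) throughout) of 0.04, against 0.02 over all genes tested. Of the markers of CD8 T and NK cells, Cd8a reached at most 1.14 FPKM and the NK receptor gene Ncr1 at most 0.523 FPKM, both in the first cKO library. Cd8b1, the gene of the second CD8 chain, was at 5.63 and 4.45 FPKM in cKO and 8.40 and 5.07 FPKM in WT. Nkg7, a cytotoxic granule gene, was at 17.1 and 11.1 FPKM in cKO and 6.65 and 6.18 FPKM in WT, with both cKO libraries above both WT libraries (log2 fold change 0.99, adjusted p = 0.374). Depth is unknown, since the table holds no counts. The second WT library stood apart from the other 3 in the number of genes listed at 0, 12379 against 9102 to 9564, which bears on every gene that is low in it.

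The targeted gene was at like levels in the genotypes. Kdm2b was at 89.8 and 97.4 FPKM in cKO and 84.9 and 94.9 FPKM in WT, so the groups overlap (log2 fold change 0.06, SE 0.13, adjusted p = 0.978, limma; the sign turned with a common sum of FPKM). A level over the whole gene does not show whether exons are missing, so these values check no label.

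With limma, 8 of the 10710 genes passed an adjusted p of 0.05 (0.0747%), 6 higher in cKO (0.056%) and 2 lower (0.0187%). At an unadjusted p under 0.05 there were 703 genes (6.56%), 408 higher (3.81%) and 295 lower (2.75%). The cKO and WT libraries did not overlap for 3691 genes (34.5%), 1909 higher (17.8%) and 1782 lower (16.6%), and these are the shares against which the counts of the gene lists are read below. The 2 genes that fell were Il10 and Tnfrsf26. Of the 6 that rose, Cd79a, Cd79b and Syk belong to a B cell list, H2-Ab1 to the class II antigen presentation list and Hbb-bs to haemoglobin, which leaves Scd1. Treg genes are described first and transcripts of other cell types afterwards.

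**Figure D1:**
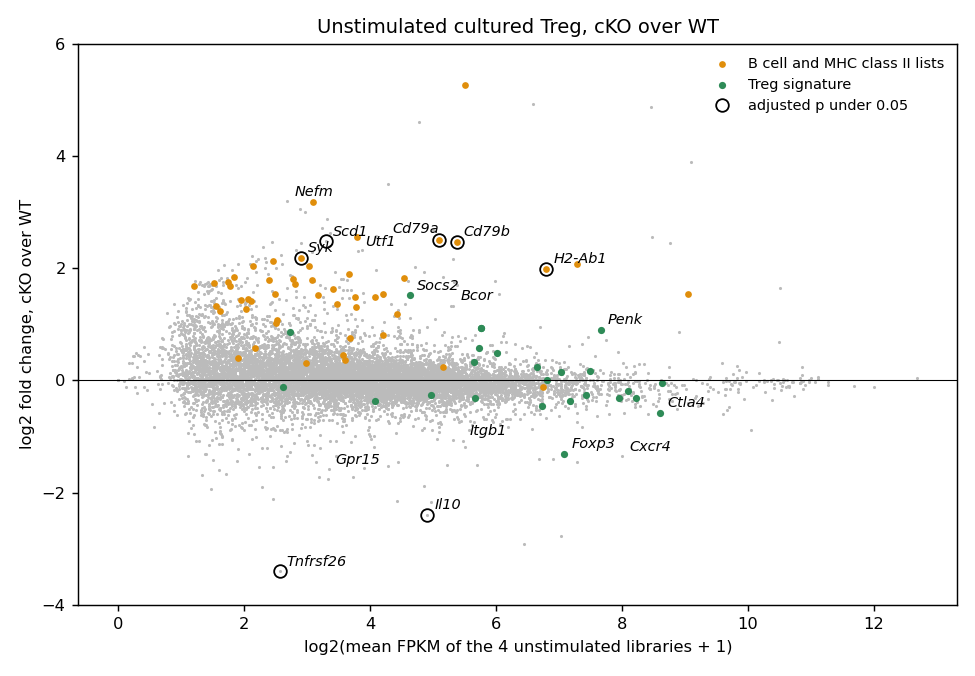
Log2 fold change of cKO over WT in unstimulated cultured Treg (vertical axis, on log2(FPKM + 1)) against log2 of the mean FPKM + 1 of the 4 libraries (horizontal axis), 1 point per gene, with the B cell and class II lists in orange, the Treg signature in green and called genes ringed. Of the 10710 genes, 10707 are drawn and 3 haemoglobin genes lie above the axis. All 36 tested B cell genes and 12 of 13 class II genes sit above 0, while Treg signature genes lie on both sides of it and Il10 and Tnfrsf26 lie below.

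Il10 encodes the anti-inflammatory cytokine through which Treg restrain inflammation at mucosal surfaces. It was at 8.93 and 8.14 FPKM in cKO and 43.5 and 55.4 FPKM in WT. Both cKO libraries lay far below both WT libraries and close to each other. Il10 fell, with a mean of 8.53 ± 0.559 FPKM in cKO and 49.5 ± 8.38 FPKM in WT (SD, n = 2 each; log2 fold change -2.40, SE 0.25, adjusted p = 0.0189). Over 24 alternative fits the value for Il10 ranged from -2.57 to -2.23 with adjusted p between 0.0134 and 0.304, and 15 of the fits called it. It was called in 4 of the 8 fits that left out 1 library. With the lists of other cell types removed and the libraries rescaled, Il10 had a log2 fold change of -2.35 and an adjusted p of 0.0692.

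The rest of the interleukin 10 family differed less. Of 7 tested members of the list of IL-10 family cytokines and receptors, Il10 was called, and Il10ra had an unadjusted p under 0.05. Il10ra, the ligand-binding chain of the IL-10 receptor, was at 5.91 and 6.14 FPKM in cKO and 11.5 and 16.5 FPKM in WT (log2 fold change -1.07, adjusted p = 0.327). The groups did not overlap, but the difference did not pass. Il10rb, the shared second chain, was at 25.6 and 22.1 FPKM in cKO and 26.4 and 18.8 FPKM in WT. There the WT libraries enclosed the cKO libraries.

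Foxp3 was the Treg signature gene furthest below 0. It was at 71.5 and 82.6 FPKM in cKO and 194 and 189 FPKM in WT, with each pair close together and a wide gap between the pairs. The log2 fold change was -1.31 (SE 0.17) and the adjusted p 0.0636, so the difference did not pass the threshold. Of 24 alternative fits 3 called Foxp3, and its log2 fold change ranged from -1.41 to -1.20. Ccdc22, whose annotated end overlaps that of Foxp3 and with which reads can be shared, was at 10.6 and 12.6 FPKM in cKO and 14.3 and 18.9 FPKM in WT (log2 fold change -0.47, adjusted p = 0.711).

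The other genes of the Treg signature lay on both sides of 0. Of its 25 tested genes 0 were called, 6 had an unadjusted p under 0.05 on the higher side and 3 on the lower side (36.0% together, against 6.56% of all genes). The median of the list was -0.04, and 12 genes lay above 0 and 13 below.

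Penk, Ecm1 and Swap70, all of the signature, stood higher in both cKO libraries by a like amount. Penk, which encodes the opioid precursor proenkephalin, was at 236 and 290 FPKM in cKO and 120 and 161 FPKM in WT (log2 fold change 0.91, adjusted p = 0.181). Ecm1, an extracellular matrix protein gene, was at 69.3 and 69.9 FPKM in cKO and 41.4 and 31.2 FPKM in WT (0.93, adjusted p = 0.164). Swap70, which encodes an actin-binding signalling protein also made by B cells, was at 70.3 and 69.2 FPKM in cKO and 30.8 and 42.1 FPKM in WT (0.93, adjusted p = 0.164). None of the 3 passed, although the groups of each were separate. Ikzf4, the gene of the FOXP3 partner Eos, was at 60.7 and 63.1 FPKM in cKO and 33.8 and 50.3 FPKM in WT, and Gpr83, a receptor gene, at 9.5 and 5.55 FPKM in cKO and 4.96 and 2.49 FPKM in WT.

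On the lower side were 2 effector molecules of Treg. Ctla4, the inhibitory receptor that strips co-stimulatory ligands from antigen-presenting cells, was at 296 and 327 FPKM in cKO and 422 and 507 FPKM in WT (log2 fold change -0.57, adjusted p = 0.374). Nt5e, the gene of the adenosine-producing enzyme CD73, was at 83.6 and 92.5 FPKM in cKO and 125 and 117 FPKM in WT (-0.46, adjusted p = 0.417). The groups of both genes were separate, and neither passed.

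The identity genes Il2ra, Ikzf2 and Izumo1r had no unadjusted p under 0.05. Il2ra, the high-affinity chain of the IL-2 receptor, was at 113 and 103 FPKM in cKO and 81.9 and 101 FPKM in WT, with a narrow gap between the groups (log2 fold change 0.25, adjusted p = 0.914). Ikzf2, the gene of the transcription factor Helios, was at 76.8 and 69.4 FPKM in cKO and 38.9 and 68.3 FPKM in WT. Izumo1r, the folate receptor 4 gene, was at 109 and 115 FPKM in cKO and 115 and 107 FPKM in WT (log2 fold change 0.01). For Ikzf2 the first WT library was the lowest of the 4 and the second lay beside the cKO libraries (0.49, adjusted p = 0.831, and 0.09 to 0.89 over 24 alternative fits). Among 22 tested partners of FOXP3 0 were called by limma, and Nfatc1 (0.51) and Hdac7 (0.69) had an unadjusted p under 0.05.

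**Figure D2:**
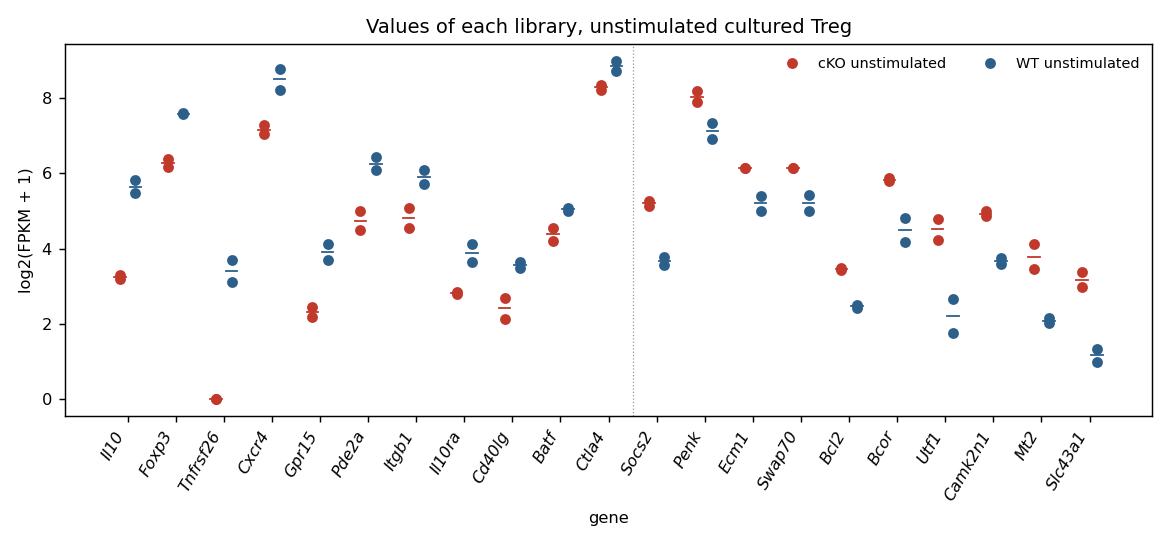
Log2(FPKM + 1) of each unstimulated library for 21 genes (cKO red on the left of each pair, WT blue on the right; points are libraries and the short bars their means, 2 per group). Genes left of the dotted line were lower in cKO and those right of it higher. The 2 libraries of each group lie apart from the other group for all 21. Many of the genes were picked for this separation, which 34.5% of all genes tested show, so it is not a result of the figure. Of the genes shown, Il10 and Tnfrsf26 passed an adjusted p of 0.05.

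Of the genes of effector Treg, the activated and tissue-directed state, 25 lay below 0 and 12 above it. Of these 37 tested members, 1 was called lower (Il10) and 0 higher. At an unadjusted p 8 were lower and 0 higher (21.6%), and the median was -0.23, which stayed between -0.30 and -0.21 under the rescalings tried and ran from -0.39 (without the first cKO library) to -0.12 when 1 library was left out. Batf, a transcription factor that the effector state needs, was at 17.3 and 22.5 FPKM in cKO and 31.2 and 32.8 FPKM in WT (log2 fold change -0.67, adjusted p = 0.459). Il1rl1, the receptor for interleukin 33, was at 29.4 and 17.9 FPKM in cKO and 33.0 and 51.8 FPKM in WT. Ccr2 was at 15.6 and 6.09 FPKM in cKO and 19.9 and 21.3 FPKM in WT, with the second cKO library by far the lowest. The 17 tested suppressor effectors, which share Il10 and Ctla4 with other lists, had a median of -0.22 with 1 called lower, 5 lower and 0 higher at an unadjusted p (29.4%), and their median ran from -0.41 to -0.15 when 1 library was left out. One of the 5, Gzmb, also stands on the list of CD8 T and NK cells, at 5.10 and 3.05 FPKM in cKO and 7.41 and 12.2 FPKM in WT.

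Receptors that guide Treg to tissues were split. Of 20 tested homing and chemokine receptor genes 0 were called, with 3 lower and 1 higher at an unadjusted p (20.0%) and a median of 0.05. Cxcr4, the receptor that retains cells in bone marrow, was at 130 and 154 FPKM in cKO and 298 and 440 FPKM in WT (log2 fold change -1.35, adjusted p = 0.0996). Gpr15, which directs Treg to the colon, was at 4.49 and 3.58 FPKM in cKO and 16.5 and 11.9 FPKM in WT (-1.58, adjusted p = 0.129). Neither passed, and in both genes the cKO libraries lay below the WT libraries. The receptor gene higher at an unadjusted p was Gpr183, at 18.6 and 14.5 FPKM in cKO and 11.9 and 11.4 FPKM in WT (log2 fold change 0.46, adjusted p = 0.738). Ccr7, which guides cells to lymph nodes, was not among the genes counted at an unadjusted p. It was at 837 and 862 FPKM in cKO and 767 and 611 FPKM in WT, with both cKO libraries above both WT libraries (log2 fold change 0.31, adjusted p = 0.810).

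The integrin chains lay on both sides of 0, with 0 of 12 called and 2 higher and 1 lower at an unadjusted p. Itgb1, the beta 1 chain, was at 32.9 and 22.5 FPKM in cKO and 66.5 and 51.1 FPKM in WT (log2 fold change -1.07, adjusted p = 0.175). Itga4, an alpha chain that pairs with it, was at 35.5 and 33.0 FPKM in cKO and 14.6 and 22.1 FPKM in WT (0.89, adjusted p = 0.465).

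Tnfrsf26 encodes a TNF receptor family member of the mouse that lacks a death domain. It was listed at 0 in both cKO libraries and at 11.96 and 7.66 FPKM in WT. It was called lower (adjusted p = 0.0189), and no fold is given because a 0 in a table without counts can be a failed estimate. Of the 8 fits that left out 1 library 2 called it.

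The genes on either side of Tnfrsf26 were then examined, a choice made after its values were seen. Tnfrsf26 (chromosome 7, 143607685 to 143627845, GRCm38) lies in a row with Tnfrsf22 (143634808 to 143649675) and Tnfrsf23 (143665807 to 143686436), which encode decoy receptors for the ligand TRAIL and are alike enough to share reads. Tnfrsf22 was at 2.33 and 2.58 FPKM in cKO and 5.10 and 11.5 FPKM in WT (log2 fold change -1.34, adjusted p = 0.401). Tnfrsf23 was at 0.165 and 0.251 FPKM in cKO and 2.03 and 2.12 FPKM in WT (-1.35, adjusted p = 0.288). In all 3 genes of the row both cKO libraries lay below both WT libraries, and only Tnfrsf26 passed. The nearest expressed gene on the other side, Cars, a tRNA synthetase gene, was at 36.1 and 33.3 FPKM in cKO and 34.1 and 39.2 FPKM in WT (-0.08). Osbpl5, a lipid transport gene just beyond Tnfrsf23, had a log2 fold change of -0.25, and Nap1l4, a histone chaperone gene, one of -0.29. In both of these, and in Cdkn1c further out (-0.42), the cKO libraries also lay below the WT libraries. Mrgpre, below the filter, did so too, at 0.021 and 0.0898 FPKM in cKO and 0.898 and 1.69 FPKM in WT. For Nadsyn1 and Dhcr7 the groups overlapped. Such separation on the lower side was seen in 16.6% of all genes tested.

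In vivo the row did not differ in this way. Tnfrsf26 was at 8.33 and 14.2 FPKM in cKO and 12.6 and 15.5 FPKM in WT. Tnfrsf22 was at 11.5 and 11.9 FPKM in cKO and 13.3 and 10.6 FPKM in WT. Tnfrsf23 was at 0.670 and 1.18 FPKM in cKO and 0.990 and 1.40 FPKM in WT. The genotypes overlap in vivo in each of the 3, and since the in vivo and culture tables were normalized separately the difference between them was not tested. In stimulated culture Tnfrsf26 was listed at 0 and 0.0191 FPKM in cKO, against 9.32 and 5.40 FPKM in WT. Tnfrsf23 was also lower there, at 0.197 and 0.507 FPKM in cKO and 1.77 and 1.97 FPKM in WT. For Tnfrsf22 the groups overlapped in stimulated culture, at 4.64 and 7.34 FPKM in cKO and 5.25 and 4.95 FPKM in WT.

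**Figure D3:**
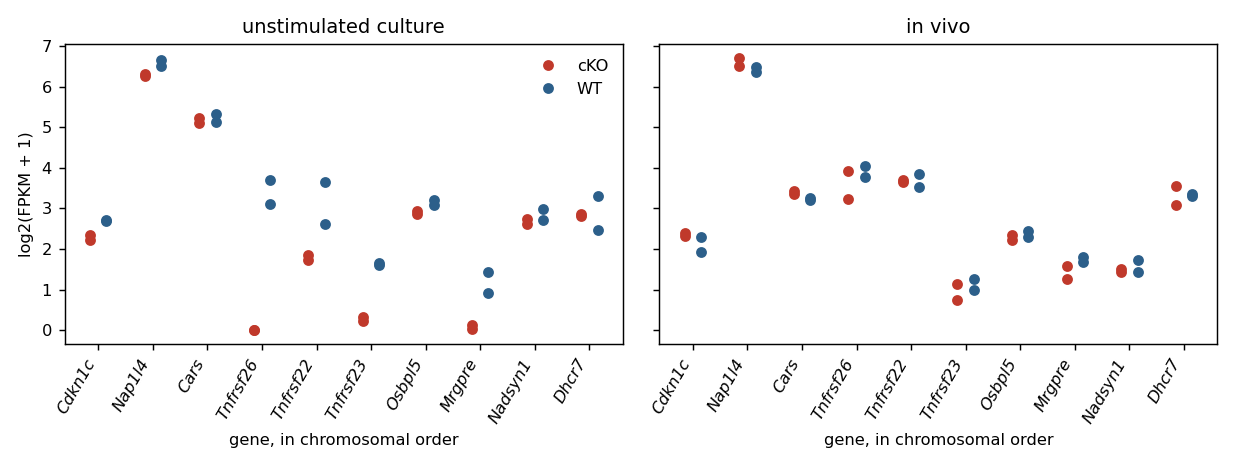
Log2(FPKM + 1) of each library for the genes around Tnfrsf26, in chromosomal order and not to scale, in unstimulated culture (left) and in vivo (right), with cKO in red left of WT in blue and 2 libraries per group. In culture Tnfrsf26, Tnfrsf22 and Tnfrsf23 are lower in both cKO libraries than in both WT libraries, as are Cdkn1c, Nap1l4, Osbpl5 and Mrgpre. In vivo the 2 genotypes overlap for the 3 Tnfrsf genes.

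Over the TNF receptor family as a whole, 17 genes were tested, 1 was called lower, and at an unadjusted p 5 were lower and 3 higher (47.1%). The median was -0.33, and -0.21 without the second WT library. Cd27, a co-stimulatory receptor gene, was at 116 and 134 FPKM in cKO and 185 and 143 FPKM in WT. Of the 3 higher genes Cd40 and Tnfrsf13c also belong to the B cell list, and the summed B cell list is given with the other cell types below. Among 11 tested TNF ligands 0 were called, 2 were lower at an unadjusted p (18.2%) and 9 lay below 0. Their median was -0.25, which ran from -0.48 to -0.22 under rescaling and from -0.43 to -0.18 when 1 library was left out. Cd40lg, the ligand by which T cells activate B cells, was at 3.35 and 5.50 FPKM in cKO and 11.4 and 10.2 FPKM in WT (log2 fold change -1.15, adjusted p = 0.259). Tnfsf8, the CD30 ligand gene, was at 52.2 and 74.9 FPKM in cKO and 93.1 and 110 FPKM in WT (-0.69, adjusted p = 0.534).

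Co-stimulatory and inhibitory receptors showed 0 calls among 20 tested genes, with 4 higher and 3 lower at an unadjusted p and a median of -0.16, which ranged from -0.28 to 0.01 when 1 library was left out. Cd200r1, an inhibitory receptor gene, was at 3.74 and 3.64 FPKM in cKO and 8.15 and 14.1 FPKM in WT (log2 fold change -1.33, adjusted p = 0.231). Icos, a co-stimulatory receptor gene, was at 128 and 75.7 FPKM in cKO and 144 and 163 FPKM in WT. Cd6 (0.44), Cd80 (0.83), Cd96 (0.56) and Cd200 (0.41) were on the higher side, and none of them passed.

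Outside the lists of other cell types, Scd1 was the only gene that passed on the higher side, and the nearest below the threshold were Plekho1 and Socs2. Plekho1, which encodes a pleckstrin homology domain protein that binds casein kinase 2, was at 19.1 and 23.0 FPKM in cKO and 7.24 and 5.66 FPKM in WT (log2 fold change 1.57, SE 0.20, adjusted p = 0.0636). Of 24 alternative fits 4 called Plekho1. Its adjusted p was 0.0443 with haemoglobin genes removed and the libraries rescaled, and 0.0692 with the lists of all other cell types removed. Socs2, a feedback inhibitor of cytokine signalling induced by STAT5, was at 37.5 and 34.1 FPKM in cKO and 10.9 and 12.8 FPKM in WT (1.52, SE 0.20, adjusted p = 0.0636). In both genes the 2 libraries of each group were close and the groups far apart.

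The remaining genes of the IL-2 and STAT5 list were not shifted one way. Of 16 tested members 0 were called, 2 were higher and 1 lower at an unadjusted p, and the median was -0.07, which ran from -0.13 to 0.01 under rescaling and from -0.10 to 0.05 when 1 library was left out. Bcl2, a survival gene, was at 9.89 and 10.2 FPKM in cKO and 4.38 and 4.71 FPKM in WT (log2 fold change 0.99, SE 0.15, adjusted p = 0.108), with tight pairs and no overlap. Il2rb, the receptor chain shared with IL-15, was at 288 and 243 FPKM in cKO and 326 and 334 FPKM in WT.

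Several further genes with small p stand on none of the lists. Adam19, a membrane metalloprotease gene, was at 28.4 and 27.0 FPKM in cKO and 11.4 and 12.4 FPKM in WT (log2 fold change 1.16, adjusted p = 0.0996). Camk2n1, an inhibitor of the kinase CaMKII, was at 28.2 and 30.8 FPKM in cKO and 11.1 and 12.6 FPKM in WT (1.25, adjusted p = 0.110). Slc43a1, an amino acid transporter gene, was at 9.36 and 6.87 FPKM in cKO and 1.51 and 0.992 FPKM in WT (2.01, adjusted p = 0.110). The groups were separate for all 3 and none passed. Fn1, the fibronectin gene, was at 7.97 and 6.60 FPKM in cKO and 0.861 and 0.967 FPKM in WT (2.11, adjusted p = 0.151). Nefm, a neurofilament gene, was at 9.27 and 11.8 FPKM in cKO and listed at 0.558 and 0 FPKM in WT.

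Of 12 tested genes of metallothioneins and zinc handling 0 were called by limma. At an unadjusted p 2 were higher and 0 lower (16.7%), 7 lay above 0 and 5 below, and the median was 0.09. The higher pair was the metallothionein genes Mt1 and Mt2, whose products bind zinc and whose reads can be shared. Mt1 was at 21.4 and 23.9 FPKM in cKO and 7.51 and 1.57 FPKM in WT (log2 fold change 2.33, adjusted p = 0.253). Mt2 was at 9.92 and 16.4 FPKM in cKO and 3.05 and 3.45 FPKM in WT (1.70, adjusted p = 0.108). The groups of both genes were separate and neither passed.

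PRC1.1 itself was examined member by member. Of its 10 genes 0 were called, and the median was -0.06. Bcor, the scaffold, was at 54.1 and 57.3 FPKM in cKO and 17.1 and 26.9 FPKM in WT (log2 fold change 1.34, SE 0.23, adjusted p = 0.143). It was the 1 member with an unadjusted p under 0.05, and its groups were separate. Its homologue Bcorl1 was at 4.65 and 4.38 FPKM in cKO and 3.15 and 2.44 FPKM in WT (0.54, adjusted p = 0.792). Rybp, which stimulates the catalytic core, was at 14.7 and 16.1 FPKM in cKO and 18.2 and 23.8 FPKM in WT, and Rnf2, the main ubiquitin ligase subunit, had a log2 fold change of -0.21. Of 14 other PRC1 genes 0 were called and 1 had an unadjusted p under 0.05. This was Bmi1, a subunit of canonical PRC1, at 20.4 and 13.98 FPKM in cKO and 9.74 and 10.2 FPKM in WT (0.71, adjusted p = 0.577). Of 12 PRC2 genes 0 were called and 1 was higher at an unadjusted p, with a median of -0.07.

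Genes that Polycomb complexes keep silent in most tissues stayed low. Of 34 developmental regulator genes on the list 9 reached a mean of 1 FPKM, and of these 0 were called, with 1 higher and 1 lower at an unadjusted p. Lhx2, a homeobox gene, was at 1.94 and 2.40 FPKM in cKO and listed at 0.304 and 0 FPKM in WT (adjusted p = 0.272). Utf1, a chromatin-associated factor of embryonic stem cells and not on that list, was at 17.9 and 26.4 FPKM in cKO and 5.35 and 2.37 FPKM in WT (log2 fold change 2.30, SE 0.33, adjusted p = 0.0996). Its groups were separate by a wide gap but did not pass.

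The CG content of promoters is shown for 3 genes of these comparisons, because KDM2B binds CG-rich DNA: the PRC1.1 scaffold Bcor, the embryonic gene Utf1 and the lineage factor Foxp3. Each sequence holds the 250 bases upstream of an annotated start in the RefSeq promoter table for GRCm38.p6, on the strand of the gene, with CG dinucleotides in capitals. For Bcor and Foxp3 the window with more CG of 2 in the table is shown.
Bcor (chrX:12160347-12160596, minus strand): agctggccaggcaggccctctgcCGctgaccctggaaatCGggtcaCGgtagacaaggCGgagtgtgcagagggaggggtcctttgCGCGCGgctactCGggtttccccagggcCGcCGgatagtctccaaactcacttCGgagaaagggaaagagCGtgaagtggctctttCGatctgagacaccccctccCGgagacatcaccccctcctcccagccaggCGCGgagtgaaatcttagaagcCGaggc
Utf1 (chr7:139943606-139943855, plus strand): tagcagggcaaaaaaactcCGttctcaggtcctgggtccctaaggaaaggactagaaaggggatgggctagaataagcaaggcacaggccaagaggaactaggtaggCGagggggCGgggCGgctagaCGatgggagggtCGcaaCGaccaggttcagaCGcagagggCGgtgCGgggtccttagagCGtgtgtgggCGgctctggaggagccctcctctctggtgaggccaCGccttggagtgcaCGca
Foxp3 (chrX:7580233-7580482, plus strand): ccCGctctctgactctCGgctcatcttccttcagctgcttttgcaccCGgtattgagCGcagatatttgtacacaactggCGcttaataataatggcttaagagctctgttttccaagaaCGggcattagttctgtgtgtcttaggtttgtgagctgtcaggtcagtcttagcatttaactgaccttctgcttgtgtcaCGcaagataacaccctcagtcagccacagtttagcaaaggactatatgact

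The Bcor window holds 17 CG and 62.8% G and C, the Utf1 window 14 CG and 61.6%, and the Foxp3 window 7 CG and 46.0%. The motif searched was CG, which reads the same on both strands. At least 1 CG was present in 92.1% of the 32851 windows of the table, at least as many as in Bcor in 23.5%, as in Utf1 in 29.4% and as in Foxp3 in 46.3%. The Bcor and Foxp3 windows were picked as the richer of 2, which can raise their place among single windows. The Foxp3 window lies wholly within the annotated gene and the Bcor window partly, so neither belongs to the outermost annotated start. The middle of the table lies at 6 CG and the quartiles at 2 and 16, so the Bcor window lies above the upper quartile, Utf1 between the middle and that quartile and Foxp3 near the middle. Windows matched fewer than 80% of the genes tested, so no comparison of CG content with expression over all genes was made.

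Scd1 was the called gene outside the lists of other cell types that rose. It encodes the enzyme that makes monounsaturated fatty acids. Scd1 was at 16.2 and 15.1 FPKM in cKO and 1.76 and 2.18 FPKM in WT (log2 fold change 2.49, SE 0.24, adjusted p = 0.0189). Both pairs were tight and far apart. Scd1 stayed called with the lists of other cell types removed (adjusted p = 0.0372), but in 2 of the 8 fits that left out 1 library. The fit with the lists removed only drops the listed genes, so it cannot show from which cells the Scd1 RNA came. The lipid synthesis list had 29 tested genes, 1 called higher and 0 lower. At an unadjusted p 5 were higher and 0 lower (17.2%), and the median was 0.12, or 0.04 without the second WT library. Scd2, its close relative, was at 27.4 and 27.6 FPKM in cKO and 16.8 and 13.2 FPKM in WT (0.84, adjusted p = 0.270).

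Further genes on the lower side were given as values. Pde2a, a phosphodiesterase gene that hydrolyses cyclic nucleotides, was at 31.3 and 21.4 FPKM in cKO and 84.9 and 67.1 FPKM in WT (log2 fold change -1.51, adjusted p = 0.108). Atp6v0c, a membrane subunit of the proton pump V-ATPase whose reads can be shared with a processed copy, was at 9.16 and 11.0 FPKM in cKO and 64.7 and 36.7 FPKM in WT (-2.17, adjusted p = 0.107). Both were separate between the groups and neither passed. The other V-ATPase genes did not follow Atp6v0c, since 0 of 16 were called, 2 were lower at an unadjusted p with Atp6v0c among them, and the list had a median of -0.05. Trat1, an adaptor of the T cell receptor, was at 6.92 and 3.70 FPKM in cKO and 16.8 and 21.6 FPKM in WT (-1.71, adjusted p = 0.195). Rgs2, a regulator of G protein signalling, was at 115 and 121 FPKM in cKO and 229 and 193 FPKM in WT (-0.83, adjusted p = 0.197).

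Signalling and housekeeping lists gave 0 calls with limma. Of 25 genes of the T cell receptor complex and its proximal kinases 2 were lower at an unadjusted p (median -0.01). Of 27 oxidative phosphorylation genes 0 had an unadjusted p under 0.05 (median -0.06). The 29 immediate early genes had 2 higher and 2 lower at an unadjusted p (13.8%), and the 24 glycolysis and hypoxia genes 1 lower (median -0.02). Of the 23 interferon-stimulated genes tested 19 lay above 0 and 4 below, with a median of 0.39 (0.25 without the second WT library). The groups did not overlap for 11 on the higher side and 3 on the lower side, against 17.8% and 16.6% of all genes. At an unadjusted p 1 was higher and 2 were lower. One of the lower ones, the guanylate-binding protein gene Gbp3, was at 33.5 and 36.3 FPKM in cKO and 56.1 and 67.2 FPKM in WT (-0.80, adjusted p = 0.197).

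Some list medians rested on the second WT library. Of 27 tested mitosis genes 26 lay above 0 (median 0.64), yet 0 had an unadjusted p under 0.05. The list summed to 248 and 191 FPKM in cKO and 221 and 81.5 FPKM in WT, and without the second WT library its median was -0.03. Hspa1b, an inducible heat shock gene that shares reads with its copy Hspa1a, was at 8.16 and 8.44 FPKM in cKO and 13.1 and 81.8 FPKM in WT (log2 fold change -1.88, adjusted p = 0.743). The 19 tested heat shock and chaperone genes had 0 calls and a median of -0.20, and -0.07 without the second WT library. Without it the median turned to -0.20 for DNA replication, against 0.09 with all libraries, to 0.08 for immediate early genes, against -0.11, and to -0.23 for oxidative phosphorylation, against -0.06. The medians of the pan T cell, Treg signature, homing receptor, PRC1.1, PRC2, V-ATPase, T cell receptor and glycolysis lists also took both signs when 1 library was left out.

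**Figure D4:**
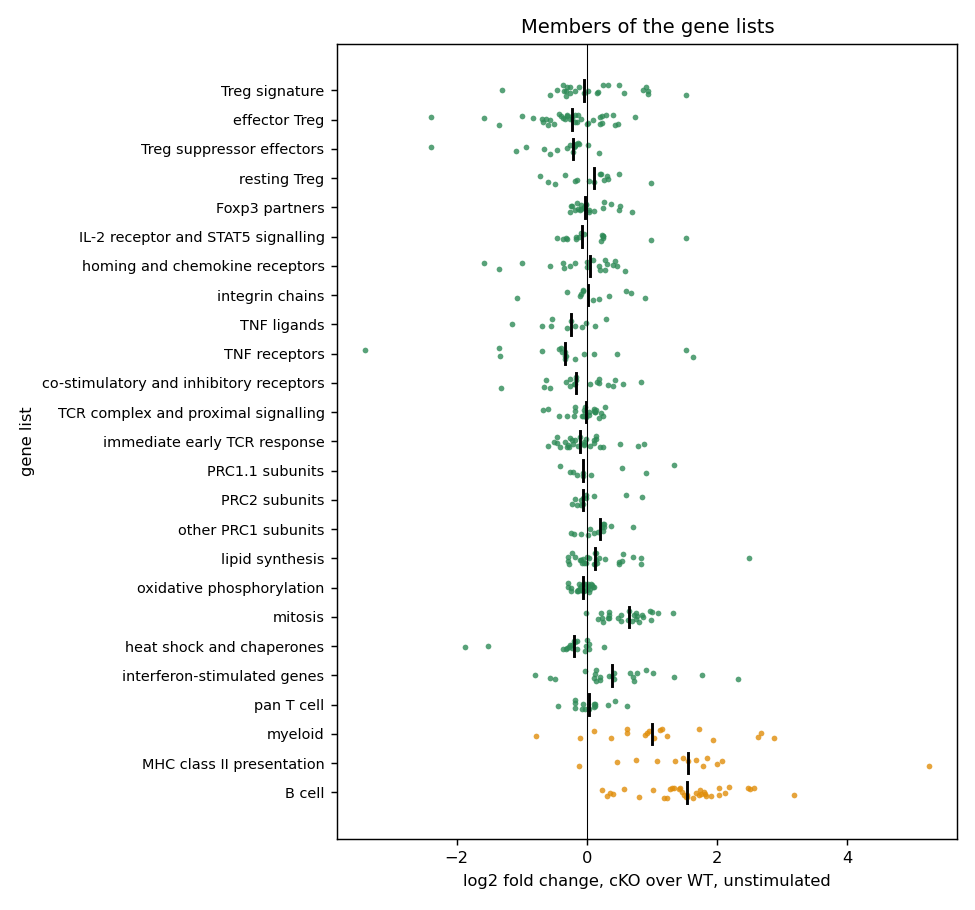
Log2 fold change of cKO over WT in unstimulated culture for each tested member of 25 gene lists (points) with the median of each list (black bars); lists of other cell types are in orange, and points are spread vertically at random for legibility. Most lists straddle 0, with medians of -0.04 for the Treg signature, -0.23 for effector Treg and 1.54 for B cell genes.

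Transcripts of other cell types are kept apart from the Treg genes above. The summed B cell, class II, haemoglobin, erythroid and platelet, and myeloid lists were higher in both cKO libraries than in both WT libraries. For the myeloid list the second cKO library lay only narrowly above the second WT library. The plasma cell and the CD8 T and NK cell sums overlapped. In bulk RNA, more cells of a type and more RNA per cell cannot be told apart. Of 36 tested genes of the B cell list, 3 were called higher and 30 had an unadjusted p under 0.05 on the higher side (83.3%). All 36 lay above 0, with a median of 1.54 and a range of 0.24 to 3.19. The list summed to 550 and 535 FPKM in cKO and 143 and 199 FPKM in WT, so that both cKO libraries held a like amount, above both WT libraries.

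The called B cell genes encode parts of the B cell receptor and a kinase that it recruits. Cd79b was at 66.9 and 71.5 FPKM in cKO and 13.1 and 10.3 FPKM in WT (log2 fold change 2.47, SE 0.17, adjusted p = 0.00542). Cd79a, which pairs with it, was at 49.1 and 65.3 FPKM in cKO and 9.45 and 8.90 FPKM in WT (2.50, SE 0.25, adjusted p = 0.0189). Syk, the kinase they recruit, was at 11.7 and 10.8 FPKM in cKO and 2.00 and 1.41 FPKM in WT (2.19, SE 0.22, adjusted p = 0.0189). Cd79b, Cd79a and Syk rose, and of the 8 fits that left out 1 library 6 called Cd79b, 2 Cd79a and 3 Syk. The defining B cell gene Ms4a1, which encodes CD20, was present in every library, at 12.9 and 11.2 FPKM in cKO and 1.39 and 3.22 FPKM in WT. Of the 15 genes outside the lists that came next on the higher side, Fam129c, Dok3 and Unc93b1 are also expressed by B cells, at log2 fold changes of 1.6, 1.49 and 1.40.

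Class II antigen presentation genes, which B and myeloid cells express, gave 1 call among 13 tested. Of these, 9 had an unadjusted p under 0.05 on the higher side (69.2%) and the sum was 1599 and 1368 FPKM in cKO and 407 and 667 FPKM in WT. H2-Ab1, a class II beta chain gene, was at 183 and 170 FPKM in cKO and 34.1 and 55.3 FPKM in WT (log2 fold change 1.99, SE 0.22, adjusted p = 0.0249). H2-Ab1 rose, and 4 of the 8 fits that left out 1 library called it. H2-Eb1, the beta chain gene of the second class II pair, was at 96.4 and 78.0 FPKM in cKO and 1.04 and 1.55 FPKM in WT (5.26, SE 1.1, adjusted p = 0.209). Its gap between the groups was far wider than that of the other class II genes. The stimulated WT libraries held 40.4 and 1.1 FPKM of it, against 68.5 and 59.7 FPKM in stimulated cKO.

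Haemoglobin followed another pattern. Haemoglobin genes took 11.6% and 1.33% of all FPKM in cKO and 0.00678% and 0.335% in WT, so that the 2 cKO libraries differed widely from each other. Hbb-bs, an adult beta globin gene, was at 16956 and 1699 FPKM in cKO and listed at 0 in both WT libraries (adjusted p = 0.0189). Hbb-b1, another beta globin gene, was at 87.6 and 0.309 FPKM in cKO and 11.8 and 417 FPKM in WT. The sources used here do not say how reads were divided among the beta globin genes. A difference of strain or haplotype between the libraries was not tested. Alas2, the haem synthesis gene of red cell precursors, was at 345 and 27.8 FPKM in cKO and 0.192 and 7.95 FPKM in WT. Of 18 tested myeloid genes 0 were called, with 4 higher and 1 lower at an unadjusted p (27.8%), and the list summed to 513 and 222 FPKM in cKO and 175 and 215 FPKM in WT. Of the 18 genes 16 lay above 0 and 2 below, with a median of 1.00, or 0.55 without the first cKO library. The myeloid lysozyme gene Lyz2 was at 76.1 and 32.7 FPKM in cKO and 5.14 and 9.27 FPKM in WT. The plasma cell list summed to 252 and 195 FPKM in cKO and 235 and 191 FPKM in WT, with 0 of 8 called and 1 lower at an unadjusted p. The CD8 T and NK cell list summed to 199 and 122 FPKM in cKO and 87.9 and 166 FPKM in WT, with 0 of 9 called and 1 higher and 1 lower at an unadjusted p.

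**Figure D5:**
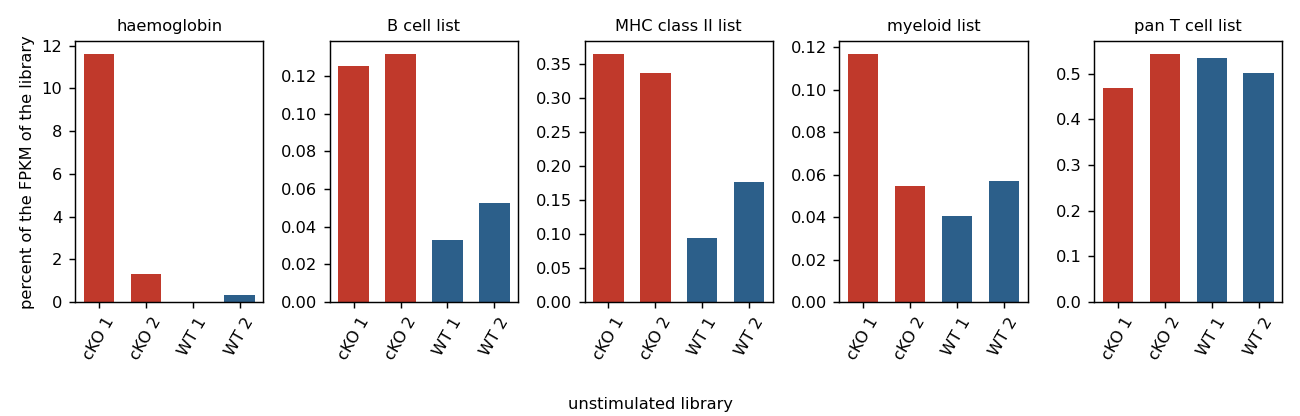
Percent of the FPKM of each unstimulated library taken by haemoglobin genes and by the B cell, class II, myeloid and pan T cell lists, with cKO libraries in red on the left and WT libraries in blue on the right; each bar is 1 library, each panel has its own scale, and all start at 0. Haemoglobin reaches 11.6% in the first cKO library, B cell and class II genes are alike in both cKO libraries and above both WT libraries, and pan T cell genes are similar in all 4.

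The share of other cell types among all differing genes was counted. Their lists hold 52 of the 408 genes higher in cKO at an unadjusted p (12.7%), 3 of the 295 lower ones (1.02%) and 102 of the 10710 tested (0.952%). Removing haemoglobin genes and rescaling left 7 calls, 6 of them among the original 8. Removing the lists of other cell types as well left 2 calls, Scd1 and Tnfrsf26. Whether the content of B cell or haemoglobin transcripts takes part in any of the differences above was not tested.

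The same genotype comparison can be set beside stimulated Treg and Treg in vivo. Il10 was at 13.1 and 7.59 FPKM in stimulated cKO and 35.4 and 33.4 FPKM in stimulated WT (log2 fold change -1.68, adjusted p = 0.0864, limma). In vivo Il10 was at 42.8 and 44.2 FPKM in cKO and 69.5 and 80.5 FPKM in WT (-0.77, adjusted p = 0.0592, limma). The groups were separate in both, but Il10 passed in neither. The difference of the genotype effect between stimulated and unstimulated culture did not pass for Il10 (limma, adjusted p = 0.999). Over all 10710 genes the interaction gave 0 calls (0.0%), with 380 at an unadjusted p (3.55%). This fit treats the 8 cultured libraries as independent, although those of the same genotype and number deviated together (correlations 0.42 in cKO and 0.24 in WT). Foxp3 was at 238 and 268 FPKM in stimulated cKO and 529 and 696 FPKM in stimulated WT (log2 fold change -1.26; the interaction with stimulation had an adjusted p of 0.999). In vivo Foxp3 was at 114 and 117 FPKM in cKO and 107 and 106 FPKM in WT, a log2 fold change of 0.12, so that the gap seen in both cultures was not seen there. The B cell genes that rose in culture were lower in cKO in vivo, as given among the additional observations.

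Genes chosen for their small p in unstimulated culture mostly kept their direction in stimulated culture. Of the 15 next genes on the higher side, 14 were also above 0 in stimulated culture (93.3%), and of the 15 on the lower side all 15 were below 0, against 63.1% of all genes tested. The libraries are distinct, but cKO libraries of the same number deviated together in the 2 cultures (correlation of deviations 0.42), as did WT libraries (0.24). The fit that gave the small p also drew its spread from the stimulated libraries. Over all genes tested the quartiles were -0.15 and 0.23, so their signs are less settled than those of genes picked by p. The shares therefore do not test agreement, here or in vivo. In vivo 14 of each 15 could be compared, and 11 higher and 11 lower ones had the same sign (78.6% each), against 55.7% of the 9424 genes tested in both tables.

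Values in vivo follow for some of the genes that were higher in cKO. Socs2 was at 40.9 and 59.5 FPKM in cKO and 21.5 and 21.8 FPKM in WT in vivo (log2 fold change 1.15, adjusted p = 0.0625). Bcor was at 44.9 and 54.1 FPKM in cKO and 21.6 and 17.0 FPKM in WT in vivo (1.32, adjusted p = 0.0373), and Utf1 at 8.26 and 8.61 FPKM in cKO and 2.71 and 3.46 FPKM in WT (1.21, adjusted p = 0.0374). Slc43a1 was at 6.77 and 8.76 FPKM in cKO and 1.38 and 1.52 FPKM in WT in vivo (1.83, adjusted p = 0.0205). Camk2n1 was at 21.8 and 22.4 FPKM in cKO and 2.02 and 2.29 FPKM in WT in vivo (2.87, adjusted p = 0.000705). Bcor, Utf1, Slc43a1 and Camk2n1 passed in vivo, and these and Socs2 had no overlap between the genotypes there. Nefm (1.45, adjusted p = 0.0479), Mt1 (2.05, adjusted p = 0.0261) and Mt2 (2.59, adjusted p = 0.0261) also passed in vivo. The log2 fold change of Utf1 was 2.30 in unstimulated culture and that of Camk2n1 1.25. Bcl2 differed, at 29.2 and 30.3 FPKM in cKO and 33.4 and 33.5 FPKM in WT in vivo. Plekho1 (0.31, adjusted p = 0.428, limma) and Adam19 (0.44, adjusted p = 0.565) did not pass in vivo.

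Of the genes given above on the lower side, Itgb1, Il10ra, Cd40lg and Tnfsf8 passed in vivo. Itgb1 was at 19.4 and 24.1 FPKM in cKO and 63.2 and 82.2 FPKM in WT (log2 fold change -1.69, adjusted p = 0.0261), and Il10ra at 7.68 and 10.6 FPKM in cKO and 24.0 and 24.0 FPKM in WT (-1.31, adjusted p = 0.0374). Cd40lg was at 7.65 and 8.14 FPKM in cKO and 21.6 and 17.4 FPKM in WT in vivo (-1.20, adjusted p = 0.0373), and Tnfsf8 at 60.55 and 59.1 FPKM in cKO and 114 and 124 FPKM in WT (-0.98, adjusted p = 0.0261). Cxcr4 was at 186 and 273 FPKM in cKO and 381 and 382 FPKM in WT in vivo (-0.76, adjusted p = 0.151), and Gpr15 at 2.42 and 2.61 FPKM in cKO and 5.11 and 6.65 FPKM in WT (-0.96, adjusted p = 0.0682). Atp6v0c did not differ in this way in vivo, at 195 and 195 FPKM in cKO and 192 and 190 FPKM in WT (0.02, adjusted p = 0.914, limma). In vivo 39 of 10415 genes passed (0.374%).

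The number of calls depended on single libraries. Limma called 0 genes without the first unstimulated cKO library (305 at an unadjusted p under 0.05) and 0 without the second (553), where 1 library of the group remains and is assumed to vary like the other groups. It called 3 without either stimulated cKO library, all among the original 8. It called 10 without the first unstimulated WT library, 3 of them among the original 8, and 10 without the second, 2 of them among the original 8. It called 26 without the first and 28 without the second stimulated WT library, and both sets hold the original 8.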

How the data were processed

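The authors deposited FPKM per gene in 1 table for the 8 cultured libraries and 1 for the 4 in vivo libraries, per the file headers. HISAT2 2.2.1 and StringTie 2.1.1 and the builds mm10 and hg19 are named in the submitters' processing notes with no role; annotation, filters and strand setting are not given in the sources used here. Libraries were grouped by their titles, and 4 per-sample columns that belong to no sample of the series were not used. The in vivo columns carry no replicate number, so their 2 libraries are given in table order.

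FPKM are not counts, so log2(FPKM + 1) of all 8 cultured libraries was fitted in R 4.3.3 by limma 3.58.1 (lmFit, contrasts.fit and eBayes with trend; two-sided tests). The genes tested had a mean of 1 FPKM or more over these libraries, with Benjamini-Hochberg adjustment over all of them and a threshold of 0.05. The pseudocount understates the change of low genes. The in vivo table was fitted separately in the same way. Depth is unknown, so no counting interval was computed. The fit was run on simulated data with known changes. The simulated libraries were independent, unlike the real ones, so the run checks the code and does not bear on the calls. Genes named are Kdm2b, all called genes, the 15 higher and 15 lower genes next by p whose groups do not overlap and whose higher group reaches 5 FPKM (lists of other cell types, predicted and ribosomal protein genes left out), up to 4 members of each list, PRC1.1 subunits and the most abundant Treg signature genes; the text gives part of these, and a few are not reported here. Ccdc22, the neighbours of Tnfrsf26, further family members, defining markers and B cell genes were added after their values were seen. The comparison, its members and the gene lists were chosen with earlier results of these data known. Gene positions and promoters come from RefSeq (GRCm38.p6). Alternatives were other pseudocounts, filters, scalings and variance models, a replicate block, the 4 unstimulated libraries alone, a fold minimum and leaving out each library.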

Additional observations from a re-analysis of the deposited data

Results flagged for a closer look

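5 of the 6 genes that rose in unstimulated cKO culture were lower in both cKO libraries than in both WT libraries in vivo. Cd79b was at 4.19 and 6.86 FPKM in cKO and 10.6 and 11.8 FPKM in WT in vivo (log2 fold change -0.93, adjusted p = 0.146, limma), against 2.47 in culture. Cd79a was at 5.52 and 6.97 FPKM in cKO and 17.6 and 26.1 FPKM in WT (-1.64, adjusted p = 0.0400). Syk was at 2.84 and 4.44 FPKM in cKO and 6.98 and 7.5 FPKM in WT (-0.85, adjusted p = 0.146), and H2-Ab1 at 35.5 and 54.1 FPKM in cKO and 84.5 and 92.2 FPKM in WT (-0.99, adjusted p = 0.1001). Scd1 was at 1.99 and 1.79 FPKM in cKO and 7.09 and 9.35 FPKM in WT (-1.66, adjusted p = 0.0261). Scd1 and Cd79a passed in vivo, on the lower side. Each of these opposite directions rests on 2 libraries per genotype in each of 2 tables that were normalized separately, and the difference between culture and in vivo was not tested.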

How the results depend on the processing

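There were 8 calls, and 8 with a pseudocount of 0.1, median-of-ratios scaling, quantile normalization or a fold minimum, 7 with a floor of 5 FPKM, a common sum, haemoglobin removed, pan T cell scaling or robust eBayes, and 9 with only the 4 unstimulated libraries, 6 of them among the original 8. There was 1 call with no filter on low values, where more genes are tested, and 4 with eBayes without trend; the cause was not tested. With the lists of other cell types removed there were 2, since 5 of the 8 called genes stand on those lists; Il10 was the other gene not called (adjusted p = 0.0692). Leaving out 1 library gave 0 to 28 calls. In alternatives chosen after seeing the data, 52 genes were called without both WT replicate 2 libraries, 45 higher and 7 lower, and 0 without both cKO replicate 1 libraries (189 at an unadjusted p under 0.05, limma). The sign turned for genes near 0 or led by 1 library. With 1 library left out, log2 fold changes ran from -0.0205 to 0.138 for Kdm2b, -0.174 to 0.0218 for Cars, -0.100 to 0.345 for Cd3d, -0.0322 to 0.390 for Cd4, -0.145 to 0.323 for Il10rb, -0.0420 to 0.0646 for Izumo1r and -5.81 to 0.275 for Hbb-b1. Without both WT replicate 2 libraries they were 0.0218 for Cars, -0.100 for Cd3d, -0.0322 for Cd4, -0.145 for Il10rb and -0.0420 for Izumo1r, and without both cKO replicate 1 libraries -0.0136 for Il10rb. With a common sum they were -0.00344 for Kdm2b and -0.0510 for Izumo1r, and with pan T cell scaling -0.0371 for Izumo1r.

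Replicate numbers do not pair the genotypes: deviations of libraries with the same number correlated at -0.14 between the unstimulated genotypes and 0.04 between the stimulated ones. With the replicate block 8 genes were called, 7 of them shared with the fit without it, and with the numbers crossed between genotypes (chosen after seeing the data) 14.

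Unknown depth limits low genes most, and the second WT library, with more genes listed at 0, limits any gene that is low in it. The calls rest on 2 libraries per group.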

Other observations

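Some genotype differences of unstimulated culture were smaller in stimulated culture, although 0 interactions passed an adjusted p of 0.05 (380 had an unadjusted p under 0.05). Mt2 was at 13.8 and 12.6 FPKM in stimulated cKO and 12.4 and 17.2 FPKM in stimulated WT (interaction adjusted p = 0.999, limma), so that the gap in unstimulated culture was not present there, while in vivo it was at 28.8 and 49.8 FPKM in cKO and 4.52 and 6.63 FPKM in WT. H60b, which encodes a ligand of the NK cell receptor NKG2D, was at 5.23 and 4.94 FPKM in unstimulated cKO and 12.1 and 17.5 FPKM in unstimulated WT, and at 1.94 and 2.92 FPKM in stimulated cKO and 2.80 and 2.67 FPKM in stimulated WT (interaction adjusted p = 0.999, limma). In vivo H60b was at 14.7 and 14.97 FPKM in cKO and 6.39 and 8.04 FPKM in WT. Ccdc22 went the other way, with 9.05 and 10.4 FPKM in stimulated cKO and 32.0 and 32.3 FPKM in stimulated WT (interaction adjusted p = 0.999, limma).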
